A study of Mus musculus with 4 samples.

Results

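This account describes liver macrophage barcodes that carried complement C1q transcripts and no UMI (unique molecular identifier, 1 per captured transcript) of 3 Kupffer cell genes. The members were chosen by their own counts in single-cell RNA libraries. Among barcodes with at least 300 detected genes and at most 20% mitochondrial UMIs, a member had at least 3 UMIs of C1qa, C1qb and C1qc together, at least 0.1% of its UMIs from these genes, and 0 UMIs of Clec4f, Vsig4, Timd4, Cd3e, Cd79a and Siglech. In all, 791 of 19176 kept barcodes were members. These 9 genes were selected on and are not results below.

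The study compared mice of genotype A/A with mice of genotype S/S, each at baseline and 3 h after 500 ng TNF given intraperitoneally. All mice were 2 months old, and the livers of 2 mice were pooled into each of the 4 libraries, so each group was 1 library. Liver cells were enriched for non-parenchymal cells by a low-speed spin and a Ficoll step, then sorted for live cells and macrophages, and sequenced with 10x 3' chemistry. The sort sets which cell types are present and in what proportion. With 1 library per group there is no replicate check, no test was made between groups, and every interval below is a 95% interval for counting error alone.

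C1q is the recognition molecule of the classical complement pathway, and in the liver it is made mainly by macrophages. Kupffer cells are the resident macrophages of the sinusoids; they clear particles and old red cells and are marked in the mouse by Clec4f, Vsig4 and Timd4. Macrophages that derive from recruited monocytes carry Ccr2 or Cx3cr1, and they can lack those Kupffer genes or gain them with time. TNF acts on macrophages through NF-kB, a transcription factor that switches on genes of inflammation and its own inhibitors.

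The A/A baseline library held 79 members among 2830 kept barcodes. The S/S baseline library held 284 among 4366. The A/A TNF library held 91 among 6452, and the S/S TNF library held 337 among 5528. No member barcode was shared between libraries, and 2 to 11 kept barcodes were shared by each pair. Median UMIs per member were 3389, 1689.5, 2013 and 5633 in the same order, against 4723.5, 5507, 5866 and 6504.5 over all kept barcodes. The members of the S/S TNF library were the deepest, with 3697281 UMIs in all, while the other libraries gave 392769, 1045426 and 396072. The 10 deepest members held 38.7% of the members' UMIs in the A/A baseline library, 18.4% in the S/S baseline library, 48.8% in the A/A TNF library and 10.6% in the S/S TNF library. Where 4 values follow each other below, both baseline libraries come first and both TNF libraries last, with A/A ahead of S/S each time. Levels are CPM, a gene's UMIs divided by the members' summed UMIs and scaled to a total of 1e+06, so a few deep barcodes weigh heavily in both A/A libraries.

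Values near the limits of the rule were common in 3 of the libraries. Exactly 3 C1q UMIs were found in 1, 18, 18 and 26 members of the 4 libraries. Barcodes with 2 C1q UMIs that otherwise passed numbered 5, 32, 24 and 29, and barcodes below the 0.1% limit numbered 3, 46, 54 and 161. On the other side of the gate, 37, 59, 69 and 90 C1q barcodes were left out through a single UMI of Clec4f, Vsig4 or Timd4. Median C1q UMIs per member were 20, 12, 6 and 20.

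Macrophage genes outside the rule were present in members of every library. Csf1r, the receptor for the macrophage growth factor CSF1, stood at 782, 389, 401 and 641 CPM. Adgre1, which encodes F4/80, stood at 642, 315, 146 and 165 CPM. A list of 12 macrophage genes summed to 10329, 16634, 7890.0 and 16010.1 CPM in members and to 2132, 4609, 6990.2 and 9009 CPM in other kept barcodes, so the sums differed little in the A/A TNF library. After each barcode was thinned to 1000 UMIs, Csf1r was seen in 48.6%, 27.0%, 22.7% and 35.1% of members and in 0% to 1.46% of B cells of the same libraries. The thinning left out 5, 58, 25 and 29 members with fewer UMIs.

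Many members carried UMIs of further Kupffer genes, against the label of a population without Kupffer markers. Cd5l, Marco, Fcna and C6 are further Kupffer genes that the rule did not use. At least 1 UMI of these was found in 12 of 79 members (15.2%) of the A/A baseline library, 157 of 284 (55.3%) of the S/S baseline library, 52 of 91 (57.1%) of the A/A TNF library and 166 of 337 (49.3%) of the S/S TNF library. The same genes gave a UMI in 5.67%, 10.7%, 13.1% and 9.35% of B cells, which should lack them and had median UMIs of 8819, 6117.5, 9728 and 7941. With each barcode thinned to 1000 UMIs the shares were 8.11%, 46.5%, 33.3% and 27.9% in members, and at most 2.19% in B cells of any library. Member shares were above those of B cells in every library, by the least in the A/A baseline library, and a single UMI in 1 barcode can still be background. Cd5l, a lipid-binding protein secreted by Kupffer cells, stood at 22.9, 745, 58.1 and 88.4 CPM in members. It stood at 1441, 2181, 696 and 693 CPM in C1q barcodes with a UMI of Clec4f, Vsig4 or Timd4, called Kupffer-UMI barcodes here. Members had less Cd5l than Kupffer-UMI barcodes in all 4 libraries, and the ratio was nearest to 1 in the S/S baseline library. The members are therefore described by their rule, as C1q barcodes without those UMIs.

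Splitting the members by Cd5l, Marco, Fcna or C6 on one hand and Ccr2 or Cx3cr1 on the other gave 4 subgroups. Ccr2 is the chemokine receptor of classical monocytes, and Cx3cr1 is the fractalkine receptor of patrolling monocytes and several tissue macrophages. In the A/A baseline library 50 members had only Ccr2 or Cx3cr1 and 8 had only the Kupffer genes. In the S/S baseline library these counts were 59 and 130. After TNF they were 12 and 49 for A/A mice and 109 and 129 for S/S mice. The A/A baseline library was thus the one in which most members, 63.3%, had only Ccr2 or Cx3cr1, against 20.8%, 13.2% and 32.3% in the others. These shares are without thinning. With or without the Kupffer genes, 68.4%, 30.3%, 16.5% and 43.3% of members had a UMI of Ccr2 or Cx3cr1. After the thinning described above, 36.5%, 26.5%, 9.09% and 18.8% did. The A/A baseline share stayed highest, but the S/S TNF share fell below the S/S baseline share. In B cells the shares were 7.93%, 9.29%, 7.24% and 2.88% unthinned, and 1.71%, 2.06%, 3.17% and 0.730% thinned.

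**Figure D1:**
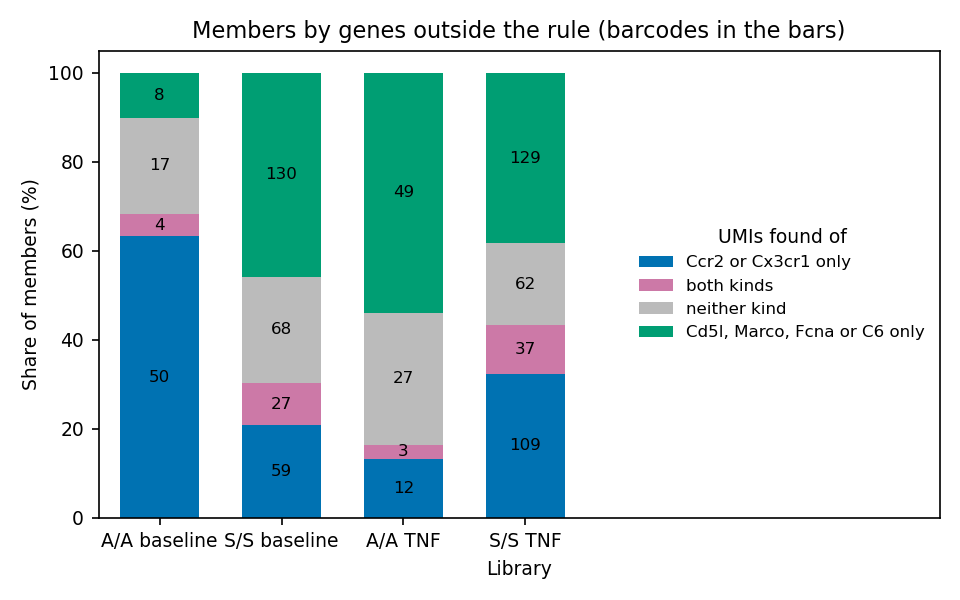
Share of members in percent (vertical axis) in each library (horizontal axis), by which genes outside the rule had a UMI; the number in each bar segment is the count of barcodes. Members with only Cd5l, Marco, Fcna or C6 numbered 8 in the A/A baseline library and 130, 49 and 129 in the other 3.

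Depth moved with this split. Members with only the Kupffer genes had a median of 2135.5, 1323.5, 1167 and 2849 UMIs. Members with only Ccr2 or Cx3cr1 had 3592.5, 6541, 14306 and 19819. The latter were fewer in most libraries but held 68.0%, 49.9%, 42.2% and 55.5% of the members' UMIs, so CPM values below describe these cells more than their number would. How far depth set which barcodes had 0 UMIs of Clec4f, Vsig4 and Timd4 was not tested.

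In S/S the subgroups also differed in genes that did not define them. Spic, a transcription factor of macrophages that recycle heme iron, stood at 569.5 CPM in S/S baseline members with only the Kupffer genes and at 21.1 CPM in those with only Ccr2 or Cx3cr1. After TNF in S/S the Spic values were 203 and 121 CPM. Cd74, the invariant chain of MHC class II, went the other way, with 2379 CPM in the former and 13867 CPM in the latter at S/S baseline, and 7044 and 18865 CPM after TNF in S/S. At A/A baseline the Cd74 values were closer, at 10327 and 13700.0 CPM. Plac8, a gene of monocytes and granulocytes, stood at 280.4 and 2808 CPM in the same subgroups at S/S baseline.

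Markers of other cell types were counted in the same barcodes. Lymphoid genes were present although the rule required Cd3e and Cd79a to be 0. The T cell list summed to 20.4, 93.7, 2.52 and 3.52 CPM, the NK or ILC1 list to 15.3, 322, 22.7 and 19.7 CPM, the B cell list to 165, 483, 295 and 87.4 CPM and the plasma cell list to 38.2, 153, 146 and 43.5 CPM. At least 1 UMI of the B cell list was found in 49.4% to 68.3% of members, and all 4 lists were highest at S/S baseline. A list of 9 neutrophil genes summed to 1433, 3647, 8251 and 1525 CPM, and 10 endothelial genes to 242, 47.8, 1669 and 388 CPM. The A/A TNF members thus had the highest sums of both lists, with S100a8, a neutrophil granule gene, at 3492 CPM and Dnase1l3, a DNase of sinusoidal endothelium, at 578 CPM. In Kupffer-UMI barcodes of the A/A TNF library the sums were 4478 and 1525 CPM. Members with at least 3 UMIs and 0.5% of their UMIs from another cell type's list numbered 9, 18, 17 and 34, which was 11.4%, 6.34%, 18.7% and 10.1%. No doublet caller was run.

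The share of kept barcodes that were members was 2.79% [2.22 to 3.47] in the A/A baseline library, and 6.50% [5.79 to 7.28] in the S/S baseline library. It was 1.41% [1.14 to 1.73] in the A/A TNF library, and 6.1% [5.48 to 6.76] in the S/S TNF library. Both S/S libraries were above both A/A libraries, and the intervals did not overlap between genotypes. Kupffer-UMI barcodes had the opposite order, with 13.2%, 5.45%, 8.18% and 5.82% of kept barcodes. Of C1q barcodes without a lymphoid UMI, members made up 17.4% [14.1 to 21.3] at baseline and 14.7% [12.0 to 17.7] after TNF in A/A, and 54.4% [50.02 to 58.7] and 51.1% [47.2 to 55.02] in S/S. In Kupffer-UMI barcodes Clec4f, Vsig4 and Timd4 together stood at 3465, 1851, 1832 and 675 CPM, lower in S/S at each time. Median UMIs of these barcodes were 2388, 1551.5, 2920 and 4528. How far lower levels of the gate genes raised the S/S member shares was not tested.

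**Figure D2:**
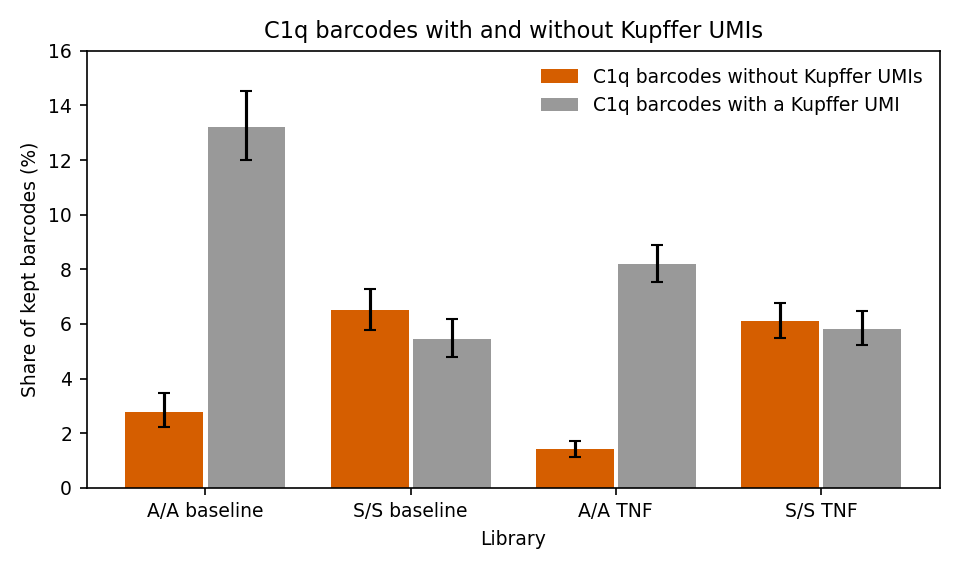
Share of kept barcodes in percent (vertical axis) for C1q barcodes with 0 UMIs of Clec4f, Vsig4 and Timd4 and for C1q barcodes with such a UMI, in each library (horizontal axis); bars start at 0 and error lines are exact 95% binomial intervals for counting error. The former made up 6.50% and 6.1% of kept barcodes in the S/S libraries and 2.79% and 1.41% in the A/A libraries.

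The baseline difference in share was smaller without shallow members and without members with further Kupffer genes. With Cd5l, Marco, Fcna and C6 also required to be 0, the shares were 2.37% [1.84 to 3.00] for A/A members and 2.91% [2.43 to 3.45] in S/S at baseline. With at least 2000 UMIs required of members but not of the other kept barcodes, they were 2.12% [1.62 to 2.72] and 2.61% [2.16 to 3.13]. Under both limits the baseline intervals overlapped. After TNF the genotypes kept apart under the same limits, with 0.604% [0.430 to 0.825] for A/A members and 3.09% [2.65 to 3.58] in S/S, and with 0.713% [0.522 to 0.95] for A/A members and 4.61% [4.08 to 5.2] in S/S.

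Members were next set beside Kupffer-UMI barcodes of the same library, over 3004 genes with enough UMIs in all 4 libraries. This is a description, since the rule divides the same C1q barcodes. Only 4 genes were over 2-fold higher in members in every library and 14 were over 2-fold lower. These counts did not leave out the genes of the rule. Clec4f, Vsig4 and Timd4 are lower in members by the rule, so any of them with enough UMIs is among the lower genes. Ccr2 stood at 491, 855, 270.2 and 335 CPM in members and at 114, 135, 34.0 and 112 CPM in Kupffer-UMI barcodes. Runx3, a transcription factor of leukocytes, stood at 99.3, 66.0, 70.7 and 85.5 CPM against 24.9, 14.8, 9.46 and 32.8. Tgfbi, a secreted matrix protein induced by TGF-beta, stood at 255, 439, 515 and 854 CPM against 124, 100, 64.9 and 352. These values were higher in members in each library.

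Genes lower in members in every library included several known from Kupffer cells. Slc40a1, the iron exporter ferroportin, stood at 84.0, 179, 90.9 and 97.1 CPM in members and 1002, 539, 503 and 338 CPM in Kupffer-UMI barcodes. Folr2, a folate receptor of resident macrophages, gave log2 ratios of -5.82, -3.20, -3.21 and -2.06, and Fabp7, a fatty acid binding protein, gave -3.82, -2.68, -4.70 and -2.40. The S/S TNF library gave the smallest of these ratios for both genes.

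TNF in A/A was described over 2346 genes with at least 50 UMIs in both libraries together. Of these, 442 (18.8%) were over 2-fold higher after TNF and 397 (16.9%) over 2-fold lower, with a median log2 ratio of 0.09. In S/S 7073 genes were compared, of which 944 (13.3%) were over 2-fold higher and 1061 (15%) lower, with a median of -0.09. The S/S balance depended on weighting and scaling, with 1525 higher and 851 lower when each barcode was weighted equally, 1062 and 914 under median-of-ratios scaling, and 822 and 549 with at least 10 C1q UMIs. Median-of-ratios scaling turned the A/A balance too, to 390 higher and 439 lower. Ratios are log2 of CPM plus a pseudocount of 1, which understates differences of low genes. Both TNF comparisons also compare libraries made with different versions of the counting software, as described below for intron-rich genes.

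NF-kB and TNF response genes were mostly higher after TNF in both genotypes. Of 40 listed genes, 34 were compared in A/A, and 31 of these were over 2-fold higher and 0 over 2-fold lower, with a median log2 ratio of 3.08. In S/S 38 were compared, 34 were over 2-fold higher and 1, Ccl5, was over 2-fold lower, with a median of 2.26. Nfkbia, the inhibitor that NF-kB induces to end its own activity, stood at 188 and 204 CPM at baseline and at 1477 and 998 CPM after TNF. Both baseline values were below both TNF values. Its log2 ratio was 2.96 [2.62 to 3.34] for A/A members and 2.29 [2.09 to 2.50] in S/S.

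Sod2, the mitochondrial superoxide dismutase, stood at 53.5 and 164 CPM at baseline and at 886 and 1020.5 CPM after TNF. Vcam1, an adhesion molecule for leukocytes, stood at 53.5 and 41.1 CPM at baseline and at 762 and 405 CPM after TNF. Tnf itself stood at 5.09 and 6.70 CPM at baseline, from 2 and 7 UMIs, and at 199 and 103 CPM after TNF. For these genes too, each TNF library was above both baseline libraries. Nfkbia and Sod2 were also higher after TNF in other kept barcodes, those that were neither members nor Kupffer-UMI barcodes, where Nfkbia stood at 151 and 186 CPM at baseline and at 1412 and 1412 CPM after TNF.

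**Figure D3:**
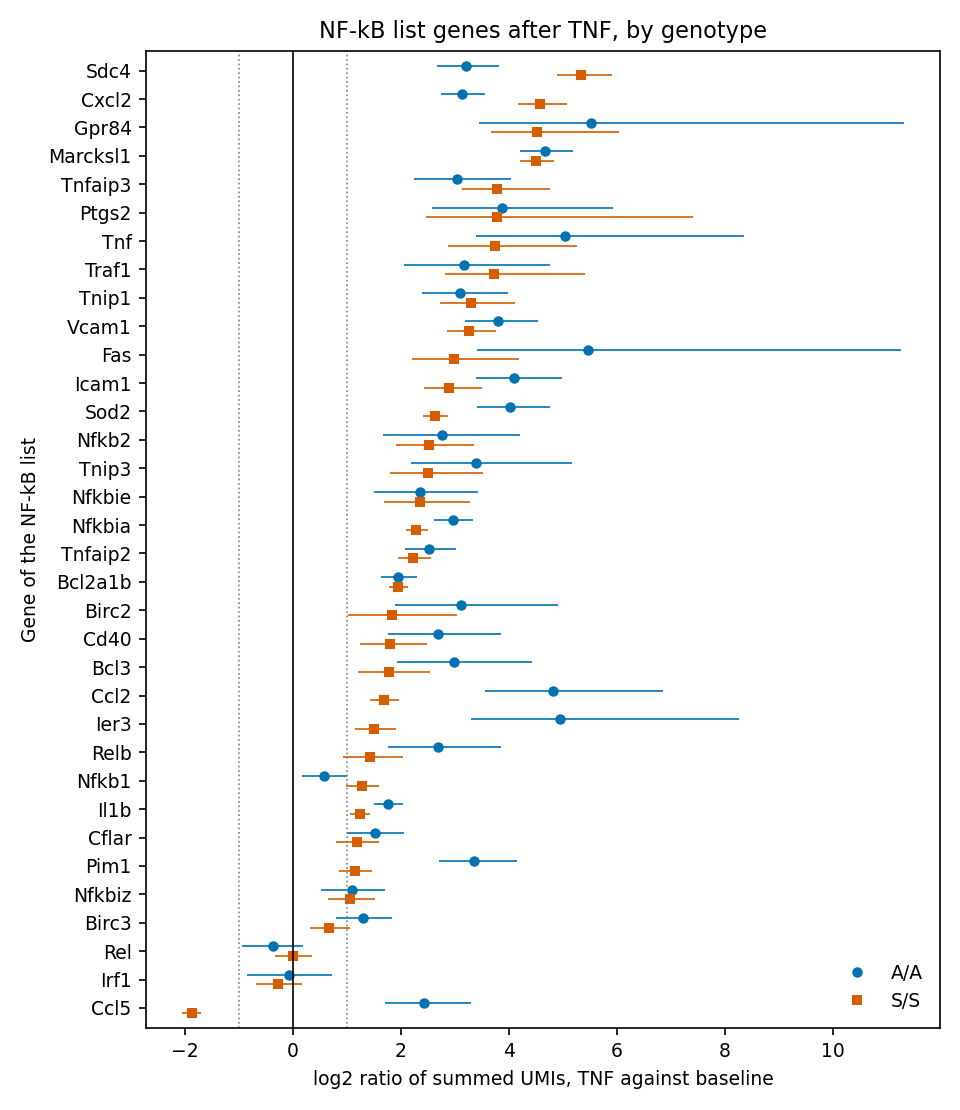
Log2 ratio of summed UMIs, TNF against baseline (horizontal axis), for the 34 genes of the NF-kB list compared in both genotypes (vertical axis); circles are A/A, squares are S/S, lines are 95% intervals for counting error, and dotted lines mark a 2-fold difference. In A/A 32 of the genes lie to the right of 0, and Ccl5 lies at 2.43 for A/A and -1.87 for S/S.

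Promoter sequence gives context for these genes, and the windows around matches to the kB motif, the 10-base binding site of NF-kB, are shown for 5 genes with a match, those with the largest ratio when the smaller of both genotypes is taken. Of 29 list genes over 2-fold higher in both genotypes, 24 had a promoter in the RefSeq table (GRCm38.p6). In the 250 bases before the start, 10 of the 24 (41.7%) had a match on either strand, as did 4.46% of 27025 symbols and 3.90% of 32851 promoter windows. The list holds known NF-kB targets, so the share is not independent of the list, and a match is not a measured site. Sdc4 has its window at chr2:164443241-164443290 on the minus strand, Cxcl2 at chr5:90903782-90903831 on the plus strand, and Tnip1 at chr11:54962969-54963018 on the minus strand. Tnfaip3 has its window at chr10:19015506-19015555 on the minus strand and Sod2 at chr17:13007736-13007785 on the plus strand. Each is printed 5′ to 3′ on the gene's strand with the match in capitals. Further matches of Tnfaip3, Cxcl2 and Tnip1 are not shown.
Sdc4: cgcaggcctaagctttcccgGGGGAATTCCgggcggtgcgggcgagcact
Cxcl2: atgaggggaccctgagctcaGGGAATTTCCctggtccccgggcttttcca
Tnip1: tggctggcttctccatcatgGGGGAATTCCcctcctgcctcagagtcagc
Tnfaip3: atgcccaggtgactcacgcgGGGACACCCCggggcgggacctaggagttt
Sod2: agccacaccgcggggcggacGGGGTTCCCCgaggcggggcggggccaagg

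These 5 genes cover several arms of the response. Sdc4, a cell surface proteoglycan, gave log2 ratios of 3.20 for A/A and 5.33 for S/S. Cxcl2, a neutrophil chemokine, gave 3.14 and 4.57, although 98.2% and 86.0% of its baseline UMIs came from 1 barcode in each library. Tnip1 and Tnfaip3 encode partners that restrain NF-kB, and they gave 3.11 and 3.04 in A/A and 3.31 and 3.79 in S/S. Sod2 gave 4.03 and 2.63. The intervals of Sdc4 did not overlap between genotypes, with [2.67 to 3.82] and [4.89 to 5.91]. However, 1 barcode gave 33.3% of Sdc4 UMIs in A/A TNF members, and 23.3% and 23.5% in A/A and S/S baseline members. Counting intervals do not cover this.

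Over all genes that met the limits for naming a gene (at least 20 CPM and not below other kept barcodes in the higher library, at most 25% of its UMIs from 1 barcode, and a counting interval that left out 0), 279 were higher after TNF in both genotypes and 225 were lower. Il1rn, the antagonist of the IL-1 receptor, led the named higher genes, with 10.2 and 13.4 CPM at baseline and 581 and 521 CPM after TNF. Its log2 ratio was 5.70 [4.46 to 7.72] for A/A members and 5.18 [4.53 to 6.16] in S/S. Mt1, a metallothionein that binds zinc, stood at 191 and 242 CPM at baseline and at 2848 and 2921 CPM after TNF. Both genes were at like levels in the 2 genotypes after TNF, with intervals of S/S against A/A of [-0.35 to 0.05] for Il1rn and [-0.05 to 0.13] for Mt1.

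Txnrd1, a thioredoxin reductase induced by oxidative stress, stood at 48.4 and 54.5 CPM at baseline and 485 and 533 CPM after TNF. Nrp2, a neuropilin, stood at 15.3 and 8.61 CPM at baseline and 260.1 and 174 CPM after TNF. Lilr4b, an inhibitory leukocyte receptor, stood at 38.2 and 44.0 CPM and then at 459.5 and 368 CPM. Ptafr, the receptor for platelet-activating factor, stood at 48.4 and 47.8 CPM and then at 384 and 348 CPM. In each case both TNF libraries lay above both baseline libraries. Jdp2, a partner of AP-1 factors, gave log2 ratios of 3.16 and 2.64. Plxna1, a semaphorin receptor with 1 and 4 baseline UMIs, gave 5.38 [3.31 to 11.17] and 4.33 [3.28 to 6.53].

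Chemokine and cytokine ligands were among the largest differences. Ccl22, a ligand of CCR4, had 0 UMIs in both baseline libraries and 107 and 621 UMIs after TNF, at least 35.4-fold higher in A/A and at least 58.5-fold higher in S/S against a floor of 3 UMIs per library. Ccl17, the other CCR4 ligand, had 0 and 2 UMIs at baseline and 47 and 1151 UMIs after TNF. Its log2 ratio in S/S was 6.74 [5.49 to 10.39]. Dcstamp, a membrane protein of macrophage fusion, also had 0 UMIs in both baseline libraries and stood at 229.8 and 77.9 CPM after TNF. A single barcode gave 35.5% of Ccl22, 55.3% of Ccl17 and 46.2% of Dcstamp UMIs in the A/A TNF members. In the S/S TNF library Ccl22 stood at 197 CPM in members with only Ccr2 or Cx3cr1 and at 6.49 CPM in those with only the Kupffer genes. Of 22 chemokines, 10 of 13 compared were over 2-fold higher in A/A and 13 of 17 in S/S, with medians of 2.43 and 1.68. The share over all genes compared was 18.8% in A/A and 13.3% in S/S.

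Antioxidant genes of the NRF2 list were over 2-fold higher after TNF for 9 of 17 compared in A/A and 10 of 23 in S/S, with medians of 1.21 and 0.72. Hmox1, which breaks down heme, stood at 143 and 899 CPM at baseline and at 2038 and 2418 CPM after TNF. Immediate early genes, which also respond to tissue dissociation, were over 2-fold higher for 7 of 14 in A/A and 13 of 21 in S/S, with medians of 1.11 and 1.24. Over all genes compared, 18.8% were over 2-fold higher in A/A and 13.3% in S/S. The 15 genes of MHC class II presentation had medians of -0.54 in A/A over 11 compared and 0.51 in S/S.

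Interferon-stimulated genes differed between the genotypes' TNF comparisons. In S/S 20 of 33 compared were over 2-fold lower and 2 over 2-fold higher, with a median of -1.25. In A/A 4 of 19 were over 2-fold lower and 5 higher, with a median of -0.04. Over all genes compared, 15% were lower and 13.3% higher in S/S, and 16.9% and 18.8% in A/A, so the A/A counts lay near those shares. For 16 of the 19 genes compared in both genotypes, the S/S ratio was below the A/A ratio. The median difference was -0.95, against -0.11 over all genes. Ifi44 stood at 163 and 177 CPM at baseline and at 2.52 and 2.70 CPM after TNF, from 1 and 10 UMIs. Ifi27l2a stood at 1298 and 3971 CPM at baseline and at 207 and 503 CPM after TNF. Both genes were lower in both TNF libraries. Cxcl10, a chemokine that interferon and NF-kB both induce, stood at 20.4 and 48.8 CPM at baseline and at 469.6 and 104 CPM after TNF. The genotypes' TNF ratios were not tested against each other.

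Genes named as lower after TNF in both genotypes included several with long introns. Camk1d, a calcium-dependent kinase with 413.6 kb of annotated intron, stood at 4272 and 1587 CPM at baseline and at 22.7 and 26.0 CPM after TNF. In other kept barcodes it stood at 3949 and 1569 CPM at baseline and at 22.4 and 25.7 CPM after TNF, so other cells showed a like difference. Lrmda, with 1034 kb of intron and 3 and 10 UMIs after TNF, gave log2 ratios of -4.84 [-7.31 to -3.42] and -6.94 [-8.46 to -6.50]. The file headers name Cell Ranger 7.1.0 for both baseline libraries and 6.1.2 for both TNF libraries, so version and treatment cannot be told apart. Whether introns were counted is not given in the sources used here.

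Over genes with more than 100 kb of intron, the median log2 ratio was -1.40 in A/A (341 genes) and -0.83 in S/S (726 genes). Over genes with 1 to 10 kb it was 0.37 and -0.04. Of the A/A genes over 2-fold lower, 204 were in the class over 100 kb. Without genes over 50 kb of intron, 383 genes were over 2-fold higher and 118 lower in A/A, and 796 and 590 in S/S. Short-intron genes that were lower in both genotypes included Cd72, an inhibitory receptor with 4.75 kb of intron, at 262 and 165 CPM at baseline and 22.7 and 13.5 CPM after TNF, and Ifi44, with 12.9 kb. The NF-kB list median was the same without long-intron genes, at 3.08 for A/A and 2.26 for S/S.

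**Figure D4:**
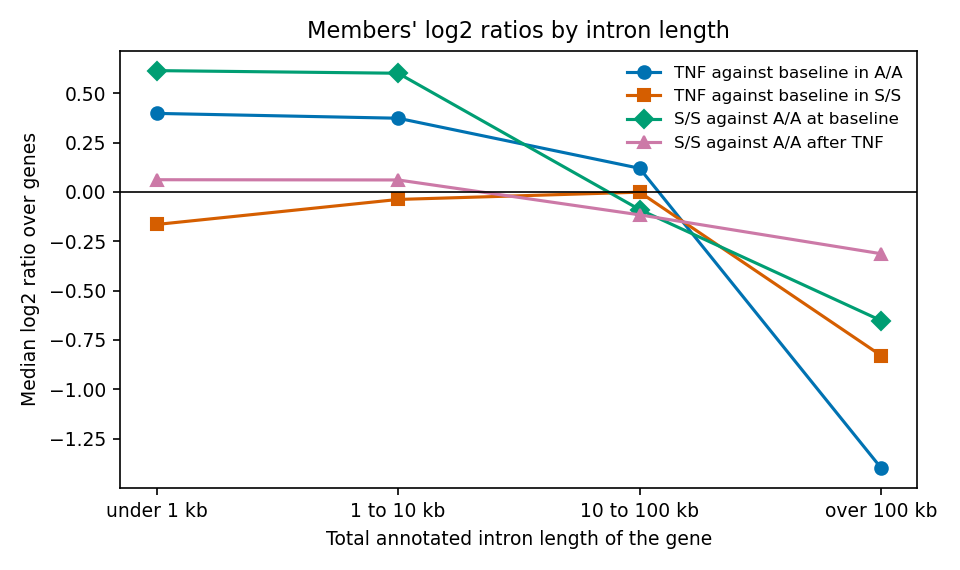
Median log2 ratio over compared genes (vertical axis) by total annotated intron length (horizontal axis, 4 classes) for the 4 comparisons of members. The class over 100 kb lies at -1.40 and -0.83 for the TNF comparisons, at -0.65 for the baseline genotype comparison and at -0.31 for the genotype comparison after TNF.

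The genotypes were compared at baseline over 3814 genes. Of these, 506 (13.3%) were over 2-fold higher in S/S and 394 (10.3%) lower, with a median of 0.05. Both libraries came from one software version, yet the median was 0.60 over genes with 1 to 10 kb of intron and -0.65 over those with more than 100 kb. Camk1d was 2.69-fold lower in S/S members and stood at 3949 CPM in A/A and 1569 CPM in S/S in other kept barcodes. Without the 10 deepest members of each library, 437 genes were over 2-fold higher and 149 lower. Without genes over 50 kb of intron, 479 were over 2-fold higher and 128 lower. Other settings gave more lower genes, with 430 higher and 737 lower when each barcode was weighted equally and 411 and 490 with totals free of mitochondrial and ribosomal genes. The balance of higher and lower genes thus changed sides with the setting.

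Summed counts of several monocyte genes were higher in S/S baseline members. Plac8 stood at 22.9 CPM in A/A and 2221 CPM in S/S, a log2 ratio of 6.54 [5.67 to 7.73]. F13a1, a coagulation factor subunit made by monocytes, stood at 17.8 and 266 CPM, and Fn1, fibronectin, at 5.09 and 129 CPM. A list of 9 monocyte genes summed to 639 CPM in A/A and 4392 CPM in S/S. The share of members with a UMI of this list was 62.0% in A/A and 60.6% in S/S. The share with a Ccr2 UMI was 46.8% and 23.9%, but the share with a UMI of Ly6c2, Plac8 or F13a1 was 24.1% and 46.1%. Whether the share of members followed the sums thus depended on the genes taken. Other kept barcodes had Plac8 at 583 and 1153 CPM, a smaller difference in the same direction.

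Kupffer and iron genes were higher in S/S baseline members as well. Marco, a scavenger receptor, stood at 10.2 CPM in A/A, from 4 UMIs, and at 699 CPM in S/S, while Kupffer-UMI barcodes had 422 and 1259 CPM. Spic stood at 20.4 and 165 CPM, and Hmox1 at 143 and 899 CPM. Of 27 genes of heme and iron handling, 10 of 15 compared were over 2-fold higher in S/S and 0 over 2-fold lower, with a median of 1.25. Without Ftl1, whose copies are uncertain, 9 of 14 were over 2-fold higher, with a median of 1.18. After TNF 1 of 22 was over 2-fold higher and 2 lower, with a median of 0.22. All genes compared gave 13.3% over 2-fold higher and 10.3% lower at baseline, and 5.67% and 8.08% after TNF. Members with only Cd5l, Marco, Fcna or C6 were 10.1% of the A/A baseline members and 45.8% of the S/S baseline members, and their part in these differences was not tested.

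Ferritin light chain counts were uncertain. Ftl1 stood at 980.2 CPM in A/A baseline members and at 11642, 8400.0 and 10849 CPM in members of the other 3 libraries. The near-identical copy Ftl1-ps1 had the reverse pattern, with 3249 CPM in A/A baseline members and 35.4, 111 and 76.3 CPM in the others. Ftl2-ps had 127 UMIs in the A/A baseline members and 0 in the other 3 libraries. Kupffer-UMI barcodes showed the same split, with Ftl1-ps1 at 6146 CPM in the A/A baseline library and from 38.9 to 191 CPM elsewhere. Reads of these copies cannot be told apart with certainty, so neither the Ftl1 nor the pseudogene ratios are read as expression.

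Interferon-stimulated genes were over 2-fold higher in S/S at baseline for 11 of 30 compared and lower for 2, with a median of 0.40. Over all genes compared, 13.3% were over 2-fold higher and 10.3% lower. Isg15, a ubiquitin-like modifier, stood at 58.6 and 317 CPM, and Irf7, a transcription factor of the interferon response, at 73.8 and 266 CPM. Genes lower in S/S included Cd83 at 168 and 13.4 CPM and Cd86 at 341 and 67.0 CPM, both surface proteins of antigen-presenting cells. Zbtb4, a zinc finger repressor, stood at 96.7 and 12.4 CPM.

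After TNF S/S was set against A/A over 6474 genes. Of these, 367 (5.67%) were over 2-fold higher in S/S and 523 (8.08%) lower, with a median of -0.07. This balance turned to 770 and 707 without the 10 deepest members, 904 and 788 with equal weights, 630 and 388 with at least 10 C1q UMIs, and 488 and 431 without barcodes with markers of another cell type. Genes of lipid-associated macrophages, a state described in fatty tissue and liver, were the list with the highest median, 1.21, and 8 of 15 were over 2-fold higher in S/S. Trem2, a lipid receptor, stood at 5.05 CPM in A/A, from 2 UMIs, and at 111 CPM in S/S. Apoe, an apolipoprotein, stood at 1495 and 7725 CPM. Gpnmb, a glycoprotein of lysosomes, had 0 UMIs in A/A and 442 in S/S, which was at least 15.8-fold higher. Mmp12, a macrophage elastase, went the other way at 429 and 97.4 CPM. At baseline Trem2 stood at 109 CPM in A/A and 209 CPM in S/S, and Apoe at 8241 and 10035 CPM. Trem2 and Apoe were thus lower after TNF in each genotype. The list's median TNF log2 ratio was 0.67 in A/A and 1.34 in S/S.

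Several ligands were also higher in S/S after TNF. Ccl7, a monocyte chemokine, stood at 5.05 CPM in A/A, from 2 UMIs, and at 184 CPM in S/S. Pf4, a chemokine also made by macrophages, stood at 73.2 and 526 CPM, and Igf1, a growth factor, at 30.3 and 176 CPM. In members with only Ccr2 or Cx3cr1, Pf4 stood at 12.0 CPM in A/A and 511 CPM in S/S, and Apoe at 628 and 8128 CPM. That subgroup held 12 barcodes and 167290 UMIs in A/A and 109 barcodes and 2052613 UMIs in S/S, so the A/A values rest on few barcodes. Whether it held like cells in both genotypes was not tested.

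Genes lower in S/S after TNF included genes of sinusoidal endothelium. Dnase1l3 stood at 578 CPM in A/A members and 83.8 CPM in S/S members. Cxcl13, a B cell chemokine, stood at 384 and 10.8 CPM in members, and at 1965 and 392 CPM in Kupffer-UMI barcodes. The endothelial list summed to 1669 and 388 CPM in the same members, and its part in these differences was not tested. NF-kB list genes were below 0 for 32 of 38 compared, with 9 over 2-fold lower in S/S, none over 2-fold higher, and a median of -0.72. The median was -0.58 without members with markers of another cell type and -0.71 without the 10 deepest members of each library. Over all genes compared, 8.08% were over 2-fold lower in S/S and 5.67% higher.

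Among genes that met the limits for naming, 201 were higher in S/S at both times and 103 were lower, with counting intervals that left out 0. Fabp5, a fatty acid binding protein, stood at 50.9 and 109 CPM in the A/A libraries and at 218 and 365 CPM in the S/S libraries. Lyz2, lysozyme of macrophages and neutrophils, stood at 3432 and 3126 CPM in A/A and at 8831 and 9280.1 CPM in S/S. Ctsd, a lysosomal protease, stood at 216 and 346 CPM in A/A and at 573 and 1039 CPM in S/S. For these 3 genes the S/S libraries were above both A/A libraries.

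Lgals3, galectin-3, stood at 334 and 487 CPM in A/A and at 900.1 and 1126 CPM in S/S, so the genotypes did not overlap there either. Ccl9, a macrophage chemokine, stood at 84.0 CPM in A/A and 232 CPM in S/S at baseline, and at 414 and 1065 CPM after TNF, so it was higher in S/S at each time while the A/A TNF value lay above the S/S baseline value. Plin2, which coats lipid droplets, stood at 89.1 and 109 CPM in A/A and 227 and 302 CPM in S/S. In other kept barcodes Lyz2 stood at 740.5 and 2565 CPM at baseline and 4004 and 5254 CPM after TNF, in the order A/A then S/S. Among genes lower in S/S at both times, Clic4, a chloride channel family protein, stood at 244 and 57.4 CPM at baseline and 833 and 356 CPM after TNF. Cd81, a tetraspanin, stood at 637 and 337 CPM and then at 338 and 172 CPM.

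**Figure D5:**
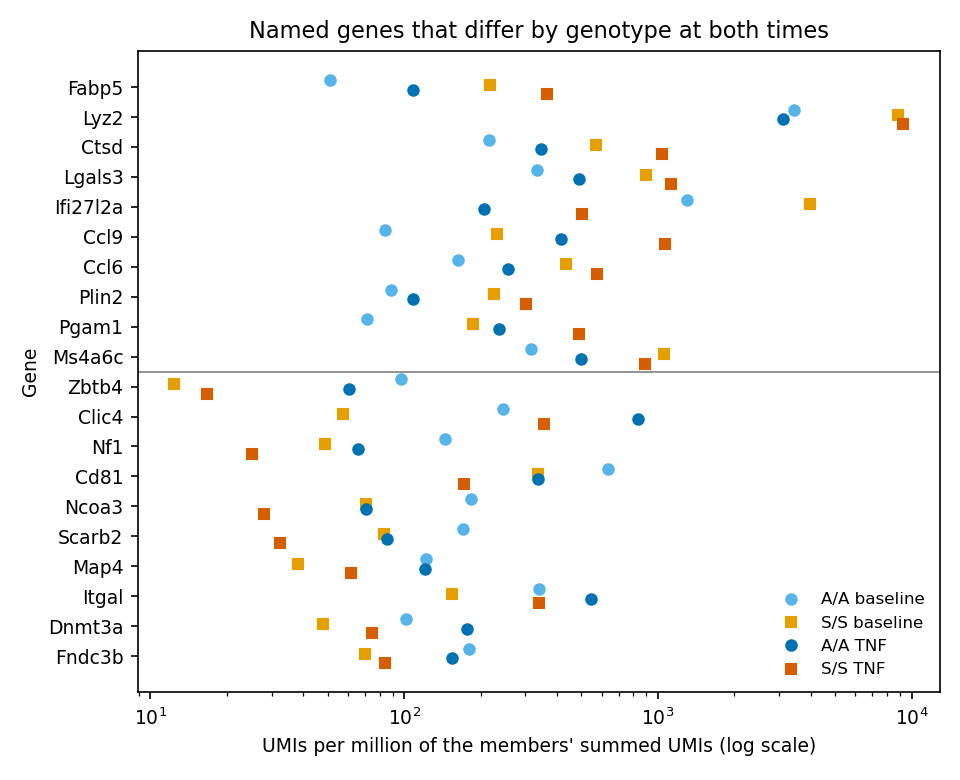
CPM over the members' summed UMIs (horizontal axis, log scale) for the 10 named genes higher in S/S at both times (above the line) and the 10 lower (below it); circles are A/A libraries and squares S/S libraries. Fabp5 and Lyz2 have both squares to the right of both circles, while Ccl9 also shifts with TNF.

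The TNF ratios of the 2 genotypes differed in sign for some genes. Dab2, an endocytic adaptor, stood at 418 and 124 CPM in A/A before and after TNF and at 83.2 and 279.7 CPM in S/S, with log2 ratios of -1.75 [-2.25 to -1.29] and 1.74 [1.43 to 2.08]. Pf4 gave -0.98 [-1.68 to -0.32] for A/A members and 1.91 [1.67 to 2.17] in S/S. Marco gave 5.10 [3.85 to 7.13] for A/A members and -2.59 [-2.78 to -2.43] in S/S, and Plac8 gave 2.95 [2.00 to 4.19] and -2.58 [-2.69 to -2.49]. Mertk, a receptor for dying cells, was 8.53-fold lower after TNF in A/A, at 244 and 27.8 CPM, and nearly level in S/S at 104 and 107 CPM. In A/A baseline members 36.6% of Dab2 UMIs came from 1 barcode, and in A/A TNF members 61.6% of Plac8 UMIs did. Dab2 has 134 kb and Mertk 99.6 kb of annotated intron, so their TNF ratios cannot be told apart from the software version.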

How the data were processed

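The 4 10x 3' libraries of mouse liver cells held 1 group each. The authors made the deposited UMI counts, whole numbers for each barcode and gene, with Cell Ranger, 7.1.0 for both baseline and 6.1.2 for both TNF libraries per the file headers, on mm39 per the submitters' processing notes. Barcodes with fewer than 250 genes or above 20% mitochondrial UMIs were present in both deposited baseline tables and in neither TNF table. Of 515 listed genes, 512 were found once among 55414.

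Member counts were summed per library and scaled to their total (numpy 2.4.6, scipy 1.17.1, pandas 2.3.3). Intervals were exact (Poisson, Clopper-Pearson, and conditional binomial for ratios) at 95%, for counting error only. A fold against 0 UMIs used a floor of 3. Steps were tested on simulated data. The members and lists were chosen with earlier results of these data known. Named genes reached 20 CPM where higher, with at most 25% of those UMIs from 1 barcode, a level not below other kept barcodes, and were ranked by the interval bound nearest 0 (the smaller of both bounds over 2 comparisons); up to 4 genes per list were taken by ratio. Nfkbia, Tnip1 and Tnfaip3 were named after their values were seen. Intron lengths came from GENCODE M21 (GRCm38), matched by gene ID, as a property only.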

Additional observations from a re-analysis of the deposited data

Results flagged for a closer look

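Among the named genes, 14 had counting intervals of the TNF log2 ratio on opposite sides of 0 in A/A and S/S members. The S/S ratio minus the A/A ratio was above 0 for Dab2 (3.48), Pf4 (2.88), Creb5 (2.70), Dst (2.65), Rbpj (1.83) and Lyz2 (0.21). It was below 0 for Marco (-7.70), Plac8 (-5.54), Serpinb6a (-3.47), Ms4a4c (-2.75), Slco3a1 (-2.05) and Ms4a6c (-0.90). The remaining values, 5.94 for Ftl1-ps1 and -3.20 for Ftl1, belong to near-identical copies whose counts cannot be told apart and are not read as expression. The Lyz2 ratios lay near 0 and changed sign when 500 genes and at most 10% mitochondrial UMIs were required. With 1 library per group, these differences were not tested. Dab2, Creb5, Dst and Rbpj have 134, 388, 359 and 178 kb of annotated intron. Slco3a1, whose difference was below 0, has 271 kb. For such long-intron genes the TNF ratios cannot be told apart from the software version. Marco and Plac8 had 4 and 9 UMIs in A/A baseline members.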

How the results depend on the processing

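Single-gene ratios were rerun only for genes named for TNF in both genotypes, genotype at both times or the difference between TNF ratios. Among these, no ratio past 2-fold changed sign under the settings run where the gene was still compared. Neither NF-kB TNF median changed sign, but some smaller ratios and the balance of higher and lower genes did. Member shares, baseline libraries first and A/A ahead of S/S, were 1.66%, 2.91%, 0.279% and 2.26% with at least 10 C1q UMIs and 0.5%, and 2.12%, 2.61%, 0.713% and 4.61% with at least 2000 UMIs. The limit of 2000 UMIs was put on members only, and the shares stayed over all kept barcodes. From 500 genes up and to 10% mitochondrial UMIs, the S/S baseline share was 5.27% and the A/A TNF share 0.872%. With Cd5l, Marco, Fcna and C6 at 0, the shares of all but the A/A baseline library were 2.91%, 0.604% and 3.09%. Genes over 2-fold numbered 839 and 2005 for TNF in A/A and S/S, and 900 and 890 between genotypes at baseline and after TNF. In that order they were 1854, 3031, 1766 and 1691 with at least 20 UMIs per pair, and 7782, 5561, 5869 and 4639 with no filter. For TNF in A/A they were 346 with at least 10 C1q UMIs, 422 without the 10 deepest members (a setting chosen after seeing the data) and 501 without genes over 50 kb of intron. For the baseline genotype comparison they were 572, 574 with resident genes at 0, and 586 without the 10 deepest. After TNF the genotype count was 1477 without the 10 deepest and 1692 with each barcode weighted equally. The cause was not tested. The NF-kB median in A/A was 3.87 without the 10 deepest, with 18 genes compared.

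The share of 2-fold calls that were higher was 52.7%, 47.1%, 56.2% and 41.2%. With equal weighting it was 64.2% for TNF in S/S, 36.8% at baseline and 53.4% after TNF. Without genes over 50 kb of intron it was 76.4%, 57.4% and 78.9% for the first 3. At baseline it was 45.6% with totals free of mitochondrial and ribosomal genes and 74.6% without the 10 deepest members. After TNF it was 52.1% without these, 53.1% without barcodes with another cell type's markers and 61.9% with at least 10 C1q UMIs, where TNF in S/S gave 60.0%. Few UMIs per member limit calls of absence. No paired analysis was possible because each group was 1 library.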
